A study of Homo sapiens with 26 samples.

Results

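The keratin genes examined here were KRT4, KRT5, KRT6A, KRT7, KRT8, KRT15, KRT17, KRT18, KRT19 and KRT80, in 3 human lung cancer cell lines that received either the MYC inhibitor Omomyc or its vehicle. Members were taken by gene symbol. Of the 10 genes, 7 had a named probe set among the 17687 genes of the array, each with 1 probe set. KRT6A, KRT15 and KRT17 were not analysed here. The simple epithelial keratins KRT7, KRT8, KRT18 and KRT19 were therefore all measured, whereas KRT5 was the only one of the basal stratified keratins in the list with values.

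Keratins are the intermediate filament proteins of epithelial cells, and each filament is built from a type I and a type II keratin that pair with one another. KRT8 (type II) pairs with KRT18 (type I) in simple, single-layered epithelia such as the alveolar lining, where KRT7 and KRT19 are also made, and pathologists use KRT7 to recognise lung adenocarcinoma. KRT5 with KRT14 marks the basal cells of stratified and airway epithelium, KRT6A, KRT16 and KRT17 appear in stressed or proliferating stratified epithelium, KRT4 with KRT13 belongs to the differentiated layers of wet stratified epithelia such as the oesophagus, and KRT80 is an epithelial type II keratin linked to cell junctions. In the human genome KRT4, KRT5, KRT7, KRT8, KRT18 and KRT80 lie in the keratin cluster of chromosome 12 and KRT19 in that of chromosome 17. KRT8 and KRT18 are neighbours whose annotated spans overlap, and both have many processed pseudogenes. Signal from such copies could not be told apart from the genes here.

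The RNA came from NCI-H1975 (H1975), labelled lung adenocarcinoma, and from A549 and NCI-H1299 (H1299), both labelled lung carcinoma. Omomyc, a miniprotein built from the dimerization domain of MYC that competes with it for MAX and DNA, was given at 12.8 µM after an overnight incubation, and controls received phosphate-buffered saline (PBS). How long the cells were exposed is not stated in the labels. Cells of both groups grew in RPMI1640 with serum. There were 4 PBS and 5 Omomyc arrays for H1975, 4 and 3 for A549, and 5 of each for H1299. The labels call the arrays of a group biological replicas and say nothing more of separate cultures, so p-values measure the spread between these arrays, which may be technical. All values are the deposited log2 signals, so that a difference of 1 is a doubling, and a level is read only against the same probe set in other arrays.

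The 26 arrays fell into 3 clusters by the distribution of their values, here called array clusters, with 9, 10 and 7 arrays. No label names these clusters, and the step that made them is not known. Every cluster held each line with both treatments, except that the third held no Omomyc array of A549. The 23 background probe sets had mean values from 2.34 to 6.69, and a group mean under 6.69 was taken as not above background. This bound is strict, since the median over all genes of the mean level was 6.48, itself under it. A gene called at or not above background may therefore still be expressed. The number of arrays limits the precision. Among the labels' tissue of origin, the lung genes SFTPB and SFTPC were not above background in any group (group means 3.9 to 4.54 and 4.21 to 4.41), and NKX2-1, the lung lineage factor, was above it only in H1975 (7.54 ± 0.62 with PBS, SD, n = 4, and 7.05 ± 0.50 with Omomyc, n = 5). FOXA2, another factor of the lung lineage, was above it only in A549 (9.83 ± 0.56 with PBS, n = 4, and 10.32 ± 0.41 with Omomyc, n = 3). The epithelial adhesion gene EPCAM was not above background in H1299 (3.92 ± 0.61 with PBS, n = 5), and the cadherin CDH1 was not in H1975 (3.93 ± 0.34, n = 4) or H1299 (3.33 ± 0.27, n = 5). PTPRC, the common leukocyte gene, stood at 2.8 to 3.26 in the 6 groups.

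With PBS, the lines carried different sets of simple epithelial keratins. A549 had the highest KRT7, KRT8 and KRT18, H1975 the highest KRT19, and H1299 was lowest for all 4. Of the 7 keratins, 5 were lower and 1 was higher in H1975 than in A549, against 18% and 20.3% of all genes. Compared with H1299, 5 were higher in H1975 (21.2% of all genes were) and 6 were higher in A549 (19% of all genes). These calls, and all calls below unless another rule is named, are at a Benjamini-Hochberg adjusted p under 0.05 over all 17687 genes in limma.

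KRT7 showed the widest gap between lines. With PBS its values were 17.08, 17.05, 16.81 and 16.36 in A549 and 13.62, 13.74, 13.38 and 12.78 in H1975. In H1299 they were 4.06, 5.98, 4.65, 3.86 and 3.53, so no H1299 array rose above background. KRT7 was thus 3.44 ± 0.40 (SE) lower in H1975 than in A549 on the log2 scale, a 10.9-fold difference with an adjusted p of 2.69e-08. Since H1299 gave only a bound, KRT7 was at least 1120-fold higher in A549 and at least 103-fold higher in H1975 than there. Such a bound sets the mean of the brighter group against the highest background probe set.

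KRT19, a type I keratin of simple epithelia and airway cells, ordered the lines differently. H1975 had 15.64, 15.81, 15.01 and 15.34, A549 had 10.78, 10.75, 10.37 and 9.41, and H1299 had 4.31, 3.71, 5.87, 3.24 and 3.86. All 3 sets of arrays were separate, and H1299 was again not above background. The step from A549 up to H1975 was 5.13 ± 0.40 on the log2 scale, 34.9-fold, with an adjusted p of 8.78e-12. KRT19 was at least 434-fold higher in H1975 and at least 12.4-fold higher in A549 than in H1299.

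The filament pair KRT8 and KRT18 was above background in every group and followed 1 order, A549 over H1975 over H1299. KRT8 with PBS had means of 17.48 ± 0.10 (SD, n = 4) in A549, 16.73 ± 0.08 (n = 4) in H1975 and 13.75 ± 0.32 (n = 5) in H1299. KRT18 stood at 16.15 ± 0.32, 15.11 ± 0.42 and 12.95 ± 0.38 in the same order. No array of either gene crossed from 1 line to the next. H1975 was below A549 by modest amounts, with log2 differences of -0.75 ± 0.20 for KRT8 (adjusted p 0.00289) and -1.04 ± 0.25 for KRT18 (adjusted p 0.00106). H1299 was lower than A549 by 3.73 ± 0.19 for KRT8, or 13.3-fold, and by 3.20 ± 0.24 for KRT18, or 9.19-fold. H1299 thus carried RNA of this pair while KRT7 and KRT19 were not above background.

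KRT5, the basal cell keratin, was not above background in any of the 6 groups. Its PBS means were 2.99 ± 0.20 (SD, n = 4) in H1975, 3.23 ± 0.37 (n = 4) in A549 and 2.81 ± 0.15 (n = 5) in H1299, and no pair of lines differed (adjusted p 0.142 to 0.595). KRT4 was above background in A549 only. There the PBS arrays read 9.12, 8.47, 9.43 and 7.78, while those of H1975 lay between 3.27 and 3.91 and those of H1299 between 3.2 and 4.04. A549 was thus at least 4.02-fold higher than either line, and H1975 and H1299, both at background, were not distinguished (log2 difference 0.15 ± 0.26, interval -0.37 to 0.68).

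KRT80 was above background in all groups and differed between every pair of lines with PBS. Its means were 9.62 ± 0.30 (SD, n = 4) in A549, 8.33 ± 0.17 (n = 4) in H1975 and 7.55 ± 0.24 (n = 5) in H1299. A549 exceeded H1975 2.46-fold (adjusted p 0.000149) and H1299 4.2-fold (adjusted p 4.17e-08), and H1975 exceeded H1299 1.71-fold (adjusted p 0.011). The plot of values by array shows all 7 genes.

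**Figure D1:**
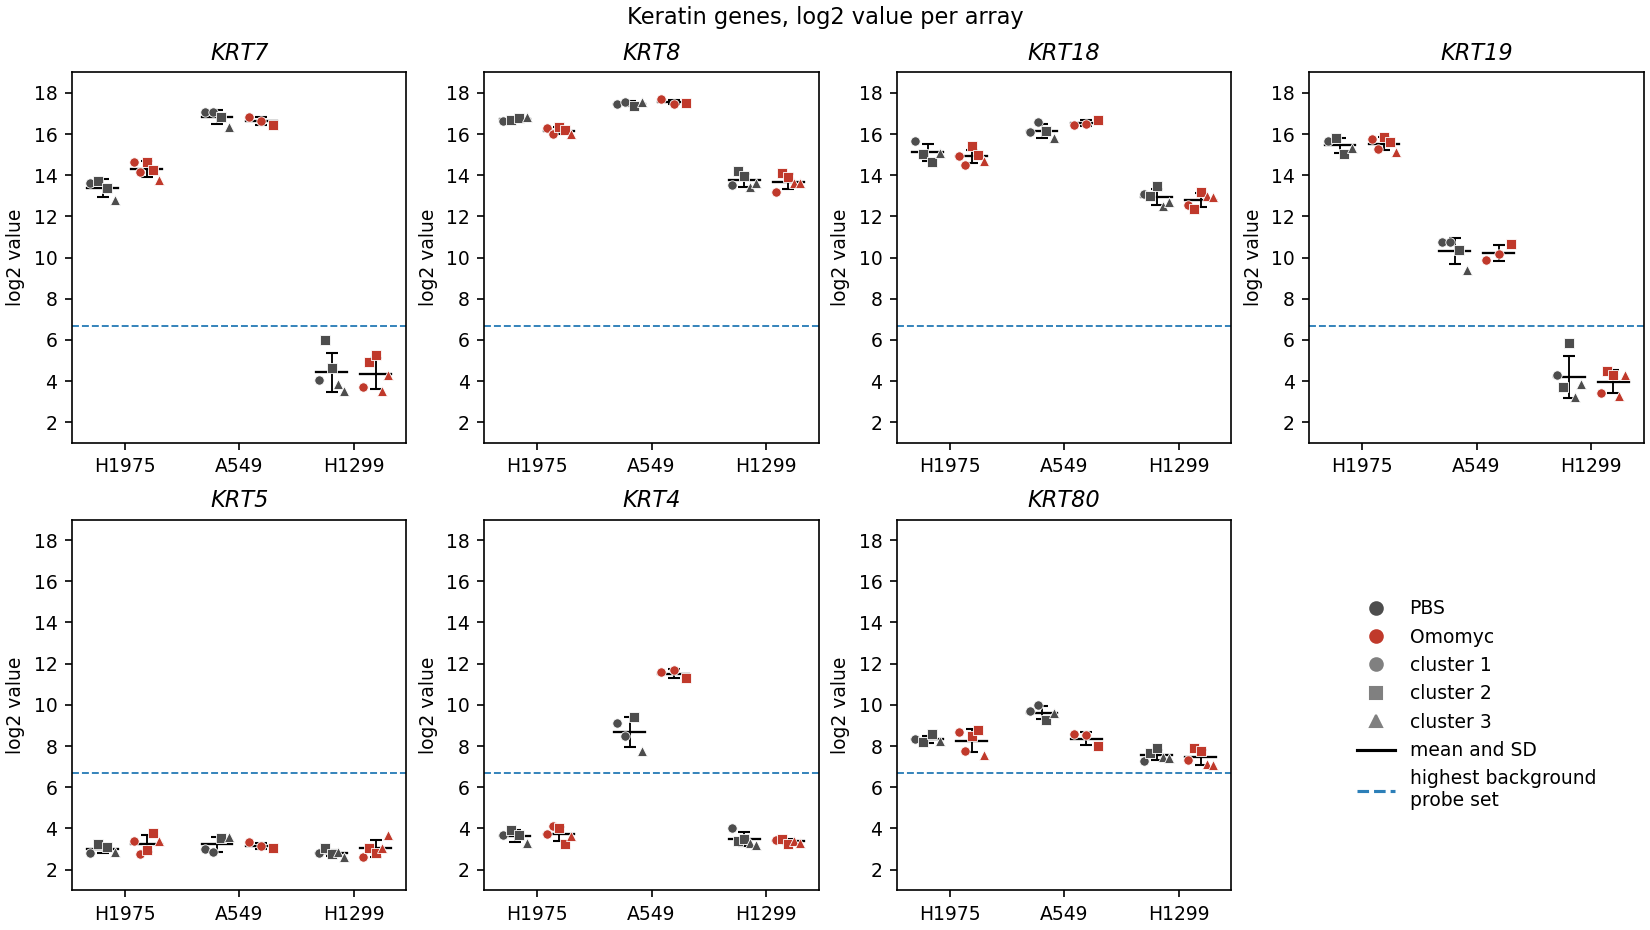
Log2 value of each array for the 7 measured keratin genes, by cell line, with PBS in grey at the left and Omomyc in red at the right of each line; symbols give the array cluster, black bars the mean and SD, and the dashed line the highest background probe set (6.69). KRT7 and KRT19 lie under that line in H1299, KRT5 lies under it everywhere, and KRT4 lies over it only in A549, where the 3 Omomyc arrays (11.28 to 11.68) are above the 4 PBS arrays (7.78 to 9.43).

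After Omomyc 2 of the 7 genes were called in A549, 1 in H1975 and 0 in H1299. In A549 KRT4 rose and KRT80 fell, in H1975 KRT8 fell slightly, and in H1299 none of the 7 was called. In A549 the 1 rising gene compares with 0.916% of all genes that rose and the 1 falling gene with 0.277% that fell. In H1975 0 of the 7 rose and 1 fell, against 5.57% and 6.28% of all genes. In H1299 limma called 0 of 7, against 4.35% of all genes higher and 4.52% lower, and 0 had an unadjusted p under 0.05. Over all genes 22.3%, 8.72% and 19.4% had such a p in H1975, A549 and H1299. The median log2 change of the 7 genes was 0.081 in H1975, -0.07 in A549 and -0.1 in H1299, beside medians over all genes of 0.004, 0.042 and 0.002.

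**Figure D2:**
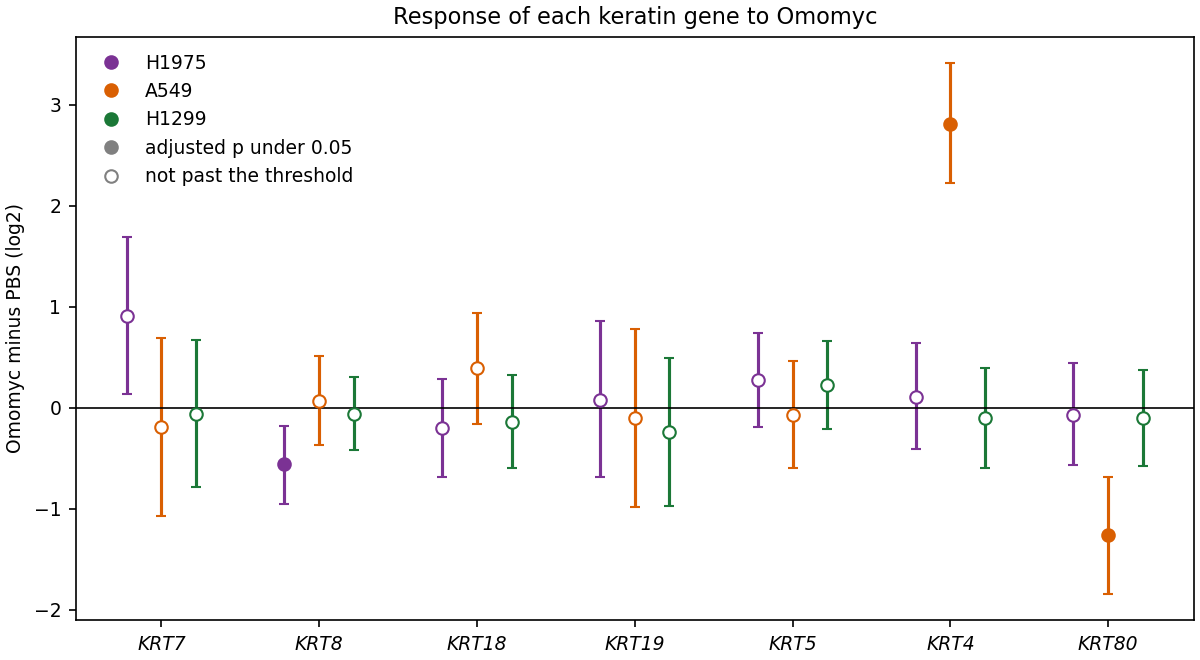
Omomyc minus PBS on the log2 scale for each keratin gene and line, with 95% intervals from the limma fit; filled points passed an adjusted p of 0.05. KRT4 (2.81) and KRT80 (-1.26) in A549 and KRT8 (-0.56) in H1975 are filled, and the interval of KRT7 in H1975 (0.14 to 1.69) lies above 0 although its adjusted p did not pass.

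KRT4 gave the only change of more than 4-fold in the list. The A549 Omomyc arrays read 11.58, 11.68 and 11.28, and every one was above all 4 PBS arrays, the closest of which read 9.43. Of all genes, 5.79% had Omomyc arrays wholly above PBS arrays in this line. The rise was 2.81 ± 0.29 (SE) on the log2 scale, 7.03-fold, with an interval of 2.22 to 3.41 and an adjusted p of 8.7e-07. In H1975 and H1299 KRT4 stayed at background with either treatment, with Omomyc means of 3.74 ± 0.35 (SD, n = 5) and 3.37 ± 0.12 (n = 5). The lowest PBS array of A549 (7.78) was its only one in the third cluster, which held no Omomyc array of this line. Within the first cluster, with 2 arrays on each side, the rise was 2.84 (adjusted p 0.00698). Within the second, with 1 array on each side, it was 1.85, and that fit took its spread from arrays of the other lines. When the cluster entered as a block, the rise was 2.70 ± 0.25 (adjusted p 6.65e-08).

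The stretch of genome just before the KRT4 start is shown because this gene carries the largest response. RefSeq's promoter table for GRCh38.p14 places these 250 bases at chr12:52814117-52814366 on the minus strand, ending at the base before the annotated transcript start. Capitals mark TATAA, which was picked after the sequence was seen, at 29 to 25 bases before the start.
KRT4 upstream: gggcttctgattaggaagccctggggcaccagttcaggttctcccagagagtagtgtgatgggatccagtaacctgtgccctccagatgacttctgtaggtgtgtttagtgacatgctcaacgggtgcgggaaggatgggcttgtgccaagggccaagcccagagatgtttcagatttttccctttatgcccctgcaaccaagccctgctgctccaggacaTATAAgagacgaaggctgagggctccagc
TATAA occurs on either strand in 20.4% of the 35116 promoters of the table, each 300 bases long (250 before and 50 after the start). The E-box CACGTG, to which MYC and MAX bind, the AP-1 motif TGANTCA, the TATA box TATAAA and the shorter motif CCACG were also searched on both strands of the 300 bases, with shares of 7.26%, 7.71%, 11.5% and 38.1% of all promoters. CCACG overlaps CACGTG where a C precedes the latter, and TATAAA always contains TATAA. None of these 4 motifs was found in the 300 bases of KRT4, nor in those of KRT5 and KRT8, the only other members matched in that table. The KRT8 window, chr12:52926420-52926719 on the minus strand, lies inside the annotated span of that gene (52897191 to 52949860). Any start nearer the end of that span was not searched. The absence of the motifs says only that the letters are not in these windows.

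KRT80 moved the other way in A549. Its PBS arrays read 9.7, 9.98, 9.24 and 9.58 and its Omomyc arrays 8.56, 8.54 and 7.98, without overlap. Omomyc arrays lay wholly below PBS arrays for 3.6% of all genes in this line. KRT80 fell by 1.26 ± 0.28 on the log2 scale, 2.4-fold, with an adjusted p of 0.0154. The difference was -1.28 within the first cluster, not past the threshold (adjusted p 0.159), and -1.26 within the second, with 1 array on each side. When the cluster entered as a block, it was -1.35 ± 0.25 (adjusted p 0.00158). The call was lost without PBS replicate 2 (-1.14, adjusted p 0.0691), without Omomyc replicate 3 (-1.07, adjusted p 0.135) and in a fit on A549 arrays alone (-1.26, adjusted p 0.0697). In H1975 and H1299 KRT80 was -0.07 ± 0.25 and -0.10 ± 0.23, with intervals of -0.57 to 0.44 and -0.58 to 0.37.

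The simple epithelial keratins of A549 were not called. KRT18 had the largest difference of them, 0.39 ± 0.27 (interval -0.16 to 0.94, adjusted p 0.819), with PBS arrays at 16.08, 16.57, 16.16 and 15.8 and Omomyc arrays at 16.45, 16.49 and 16.69. KRT7, KRT8 and KRT19 were at -0.19, 0.07 and -0.10. Intervals for KRT7 (-1.07 to 0.69) and KRT19 (-0.98 to 0.78) reach further below 0 than above it. KRT8 was measured more tightly, with an interval of -0.37 to 0.51.

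In H1975 the pair of KRT8 and KRT7 separated by array. KRT8 read 16.65, 16.68, 16.78 and 16.81 with PBS and 16.29, 15.99, 16.36, 16.19 and 15.99 with Omomyc, so every Omomyc array was below every PBS array, as for 5.35% of all genes in this line. It fell by 0.56 ± 0.19 on the log2 scale, 1.48-fold, with an adjusted p of 0.0486. The fall held in direction within each cluster (-0.51, -0.45 and -0.82) and was -0.54 ± 0.17 when the cluster entered as a block (adjusted p 0.0226, where 19.2% of all genes passed). It missed the threshold when any 1 array other than Omomyc replicate 3 was left out (-0.60 to -0.52, adjusted p 0.0621 to 0.11). The median over the genes tested on an array differed by -0.112 between Omomyc and PBS in this line. The first cluster held 1 PBS and 2 Omomyc arrays of H1975, so this shift was not separated from the clusters. With each array centred on that median the change of KRT8 was -0.45 (adjusted p 0.189). With quantile normalization of all arrays it was -0.65 and passed (adjusted p 0.00428).

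KRT7 in H1975 ran opposite to KRT8. Its PBS arrays read 13.62, 13.74, 13.38 and 12.78 and its Omomyc arrays 14.66, 14.17, 14.64, 14.26 and 13.75, with every Omomyc array above every PBS array, as for 5.18% of all genes. The difference of 0.91 ± 0.38 (1.89-fold, interval 0.14 to 1.69) did not pass (adjusted p 0.13). The lowest array of each group was the one of the third cluster. Within clusters the difference was 0.79, 0.89 and 0.97, and with the cluster as a block it was 0.92 ± 0.28 and passed (adjusted p 0.0204). KRT7 also passed with each array centred on its median (1.03, adjusted p 0.0144). The shift of that median, not separated from the clusters, enters this value. KRT7 did not pass with array weights, or with the replicate number and the cluster both as blocks. Without a block it passed in 0 of 9 fits with 1 array left out (adjusted p 0.0933 to 0.336).

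KRT18 and KRT19 gave no call in H1975. KRT18, the filament partner of KRT8, was at -0.20 ± 0.24 (interval -0.69 to 0.28), and KRT19, in which H1975 exceeded both other lines, was at 0.08 ± 0.38 (interval -0.69 to 0.86). KRT4 and KRT5 stayed at background, with differences of 0.11 ± 0.26 and 0.27 ± 0.23.

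H1299 showed no called change in a keratin that it expressed above background. KRT8 read 13.53, 14.19, 13.96, 13.44 and 13.62 with PBS and 13.18, 14.1, 13.9, 13.61 and 13.64 with Omomyc, a difference of -0.06 ± 0.18 (interval -0.42 to 0.3). KRT18 differed by -0.14 ± 0.22 (interval -0.6 to 0.32). In both genes the 2 groups overlapped. With the cluster as a block limma also called 0 of the 7 in H1299, where 15.9% of all genes passed, and in A549 it called the same KRT4 and KRT80, where 2.84% did. KRT7 and KRT19 remained at background with Omomyc, at 4.36 ± 0.76 (SD, n = 5) and 3.96 ± 0.56 (n = 5).

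**Figure D3:**
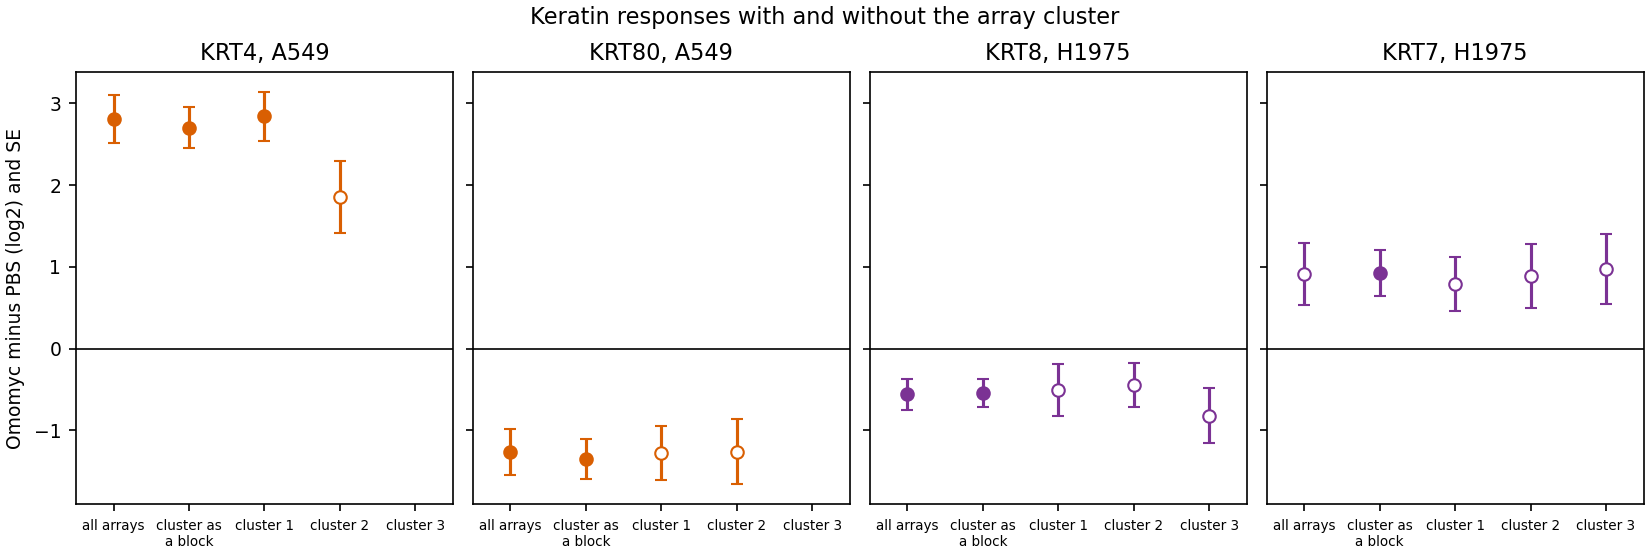
Omomyc minus PBS on the log2 scale with its SE for KRT4 and KRT80 in A549 and KRT8 and KRT7 in H1975, from all arrays, with the array cluster as a block, and within each cluster; filled points passed an adjusted p of 0.05. Each gene keeps its direction in every cluster that could be fitted, and A549 has no value in the third cluster, where it has no Omomyc array. A549 in the second cluster and H1975 in the third have 1 array on each side, so the SE there comes from arrays of other lines.

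Whether the response differed between lines was tested directly. Among the 7 keratins KRT4 alone passed the moderated F test over the 3 responses (adjusted p 7e-06), which 8.18% of all genes passed. Its response was 2.70 ± 0.39 lower in H1975 than in A549 (log2 difference -2.70, adjusted p 5.73e-05) and 2.92 ± 0.38 higher in A549 than in H1299 (adjusted p 2.39e-05). At that rule 4.62% and 2.47% of all genes were called. None of the 7 keratins was called between H1975 and H1299 (5.7% of all genes were). At an unadjusted p under 0.05 there were 0 of the 7, against 16.4% of all genes. As KRT4 was at background in both of these lines, any change that left it under the background bound could not be read there. The called differences therefore do not show that KRT4 failed to respond in H1975 or H1299.

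KRT80 came close without passing. Its F test gave an adjusted p of 0.0574, and its response was 1.19 ± 0.37 higher in H1975 than in A549 (adjusted p 0.0634) and 1.16 ± 0.36 lower in A549 than in H1299 (log2 difference -1.16, adjusted p 0.0943). With the cluster as a block both differences passed (1.27 and -1.25, adjusted p 0.0122 and 0.018). With the replicate number as a block they were 1.38 and -1.18 (adjusted p 0.0111 and 0.0326). For KRT7 and KRT8 the F test gave 0.391 and 0.303, so their responses were not shown to differ between lines, and neither pairwise difference from H1975 passed for either gene without a block.

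The other keratin genes of the array were mostly at background. Of 38 with a probe set, 36 had no group mean above background. The exceptions were KRT16 in H1975 and the hair keratin KRT85 with Omomyc in A549 (6.92 ± 0.59, SD, n = 3, against 6.65 ± 1.03 with PBS, n = 4, not called). KRT85 was already higher in A549 than in the other lines with PBS. Its log2 difference was -4.17 ± 0.33 for H1975 minus A549 (adjusted p 9.61e-12) and 4.14 ± 0.31 for A549 minus H1299 (adjusted p 2.99e-12). In H1975 2 of the 38 rose and 0 fell, near the 5.57% of all genes that rose and with 6.28% that fell. KRT16, a stress keratin of stratified epithelium, ranged from 6.22 to 8.14 with PBS (n = 4) and from 8.77 to 9.7 with Omomyc (n = 5). It rose by 2.16 ± 0.39 on the log2 scale (adjusted p 0.000288). Its response was called higher than in H1299 (adjusted p 0.00434) and not against A549. KRT16 was under the background bound in both of these lines, where a change that stayed under the bound could not be read. KRT14, the basal keratin that pairs with KRT5, was called higher (adjusted p 0.0223) but stayed at background, 3.66 ± 0.70 with Omomyc (n = 5). KRT13, the filament partner of KRT4, was not called in any line and was at 0.10 ± 0.29 in A549. In A549 and H1299 limma called 0 of the 38, against 1.19% and 8.87% of all genes. At an unadjusted p under 0.05 there was 1 in each, against 8.72% and 19.4% of all genes. The map of all keratins shows these responses side by side.

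**Figure D4:**
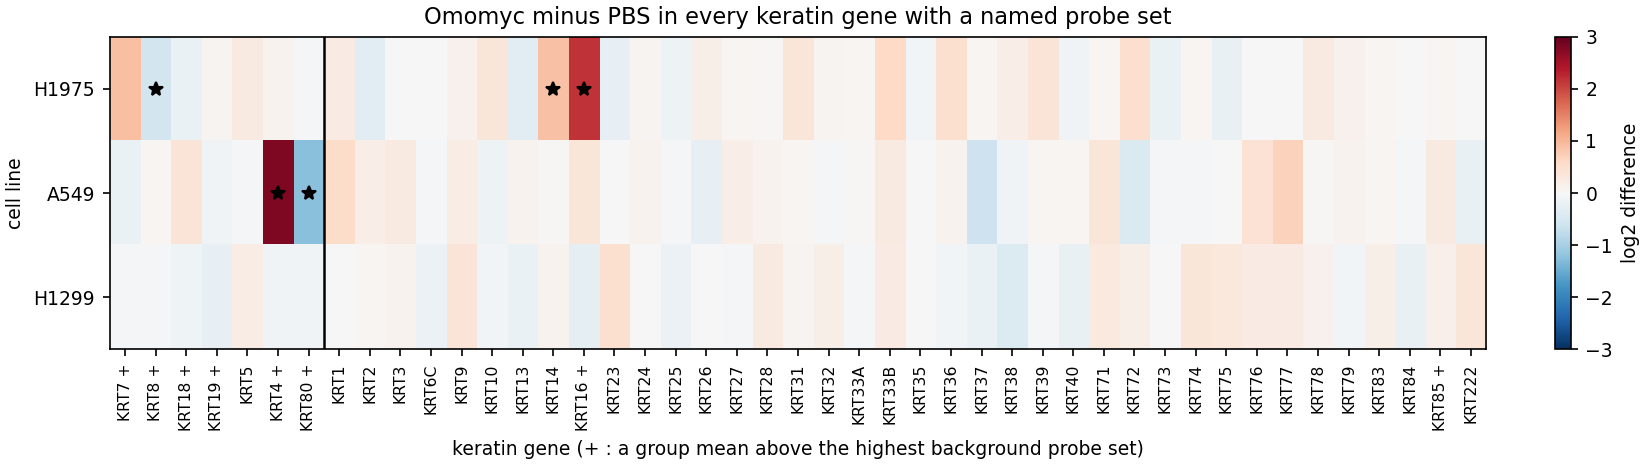
Omomyc minus PBS on the log2 scale (colour) for the 7 keratin genes of the list (left of the line) and the 38 others with a probe set, by cell line; stars mark an adjusted p under 0.05 and a plus sign a gene with a group mean above the highest background probe set. Stars stand at KRT8, KRT14 and KRT16 in H1975 and at KRT4 and KRT80 in A549, and there are none in H1299.

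Keratin filaments are anchored to junctions by desmosomal and plakin proteins, and this group was examined next. In H1975 3 of 19 such genes fell and 0 rose, with a median change of 0.036. Of all genes 6.28% fell and 5.57% rose in this line. They were PPL, which encodes the cornified-layer plakin periplakin (-2.63 ± 0.37, adjusted p 1.23e-05), PLEC, the cytolinker plectin (-1.27 ± 0.27, adjusted p 0.00139), and PKP4 (-0.66 ± 0.21, adjusted p 0.0394). PPL went from 8.19 ± 0.51 (SD, n = 4) to 5.56 ± 0.58 (n = 5), under the background bound. PLEC was also the 1 gene called among 5 hemidesmosome genes, with a list median of -0.133. In A549 and H1299 limma called none of the 19 or of the 5, against 1.19% and 8.87% of all genes. At an unadjusted p under 0.05 there were 2 and 2 of the 19, and 0 and 1 of the 5. Over all genes 8.72% and 19.4% had such a p.

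Among 15 other intermediate filament genes, 5 fell in H1975 and 0 rose (median -0.261), beside 6.28% and 5.57% of all genes. SYNM, the synemin gene of muscle and glial filaments, fell by 2.73 ± 0.38 to a level under the background bound (4.96 ± 1.18, SD, n = 5), and LMNB1 fell by 1.49. BFSP1 and SYNC were called lower between means that were both under that bound, and NES ended at it (6.68 ± 0.72, n = 5). In H1299 SYNM rose by 1.30 ± 0.36 (adjusted p 0.0187) and LMNB1, the nuclear lamin B1, fell by 1.04 ± 0.23 (adjusted p 0.00298). Of all genes 4.35% rose and 4.52% fell there, and the list median was 0.099. The responses of SYNM in H1975 and H1299 differed (adjusted p 6.07e-06). VIM, the mesenchymal filament gene, was high in all lines and was not called in any. In A549 limma called 0 of the 15 (1.19% of all genes), and 0 had an unadjusted p under 0.05 (8.72% of all genes). The list median was -0.062.

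Genes of stratified differentiation moved both ways in H1975, with 4 of 32 higher (5.57% of all genes), 2 lower (6.28%) and a median of 0.044. The serpins SERPINB4 and SERPINB3, squamous cell carcinoma antigens, rose by 3.54 ± 0.24 and 2.66 ± 0.29 from PBS means under the background bound (6.55 and 5.86). S100A9, a calgranulin, fell by 2.30 ± 0.30 between levels that were both under that bound, and EMP1 fell by 1.29 ± 0.38. In H1299 only LYPD3 was called, up by 1.26 ± 0.29 (adjusted p 0.00489) between levels under the bound. Of all genes 4.35% rose and 4.52% fell there, and the list median was 0.013. In A549, where KRT4 rose, limma called 0 of the 32 (1.19% of all genes), and the median was 0.014. At an unadjusted p under 0.05 there were 2, against 8.72% of all genes.

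Of 17 regulators of epithelial genes, 2 fell in H1975 (6.28% of all genes) and 2 rose in H1299 (4.35% of all genes). KLF5, a Krüppel-like factor of epithelial cells, fell by 2.05 ± 0.27 in H1975 (adjusted p 4.31e-06) and rose by 1.19 ± 0.26 in H1299 (adjusted p 0.00246). These responses differed by -3.24 ± 0.37 (adjusted p 8.76e-07). TFAP2C fell by 0.80 ± 0.25 in H1975 and SOX9 rose by 0.92 ± 0.27 in H1299, where it stayed under the background bound. In A549 0 of the 17 were called by limma (1.19% of all genes) and 2 had an unadjusted p under 0.05 (8.72% of all genes). The list medians were -0.086, -0.025 and 0.021 in H1975, A549 and H1299.

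Marker genes were counted in the same way, beside 5.57% of all genes that rose and 6.28% that fell in H1975. In H1975 the tight junction gene CLDN7 rose by 2.21 ± 0.24 (1 of 7 epithelial markers, median 0.099) and ZEB1, a repressor of epithelial genes, rose by 0.84 ± 0.19 (1 of 7 mesenchymal markers, median 0.299). CD68, a lysosomal gene of macrophages and many other cells, rose by 1.49 ± 0.23 (1 of 4 leukocyte markers), and the NRF2 target AKR1C1 fell by 1.21 ± 0.32. AKR1B10, the other of 2 such markers, was also called lower, but from 3.75 to 2.92, both under the background bound. Among 6 lung lineage and 5 fibroblast markers in H1975, limma called 0, and 0 had an unadjusted p under 0.05 (22.3% of all genes). In A549 and H1299 limma called no marker of these 6 lists, against 1.19% and 8.87% of all genes. At an unadjusted p under 0.05 there were 1 epithelial and 1 mesenchymal marker in A549 (8.72% of all genes). In H1299 there were 2 mesenchymal and 1 leukocyte marker (19.4% of all genes). The part of these genes in the keratin changes was not tested. MYC itself rose by 0.97 ± 0.20 in H1975 (adjusted p 0.00119), fell by 1.15 ± 0.19 in H1299 (adjusted p 0.000135) and was not called in A549 (-0.23 ± 0.23).

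The genes closest to each keratin in pattern were found from the root mean square difference between their 6 group means, each centred on its own average. For KRT4 they were SLC23A1, a vitamin C transporter (0.532), KCNK1, a potassium channel (0.594), PDE3A (0.602), PARM1 (0.621), EIF1AY (0.653) and ANXA13 (0.655). The centred pattern of KRT4 was matched in the step between lines more than in the response, since with Omomyc SLC23A1 stood at 10.56 in A549 against 9.26 with PBS, and PARM1 at 10.7 against 9.46, both smaller steps than the 2.81 of KRT4. KRT8 was followed most closely by SHTN1 (0.105) and PTPRU (0.111), and KRT18 by ALCAM (0.071) and DTX3 (0.186). ALCAM stood at 12.86, 14.03 and 10.75 with PBS in H1975, A549 and H1299, the same order as KRT18.

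The lines' other keratins had looser or flat counterparts. CREG1 (0.966) and PTPRM (1.072) were nearest to KRT7. CFB, complement factor B (0.86), and CDA (1.01) were nearest to KRT19. For KRT80 they were SPANXB1 (0.123) and SLC6A14 (0.175), whose group means were all under the background bound. For KRT5 they were FCN3 (0.04) and KLHL11 (0.042), which means little more than that all 3 were nearly level across the 6 groups. These likenesses rest on 6 group means that share arrays and clusters, and are a description.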

How the data were processed

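Deposited log2 values of 26 single-colour arrays were used as given; per the submitters' processing notes the authors used RMA and Partek, with no versions. The deposited table held 24351 probe sets, of which 17709 had 1 gene symbol, 0 several and 6642 none. All 17709 were matched by Entrez ID, giving 17687 genes; where a gene had several probe sets (20 genes) the brightest by mean was kept. No source used here names the files' genome build. Groups came from the sample labels. No 2 arrays held identical values.

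limma 3.58.1 (R 4.3.3) fitted 1 coefficient per group to all arrays (lmFit and eBayes, 20 residual degrees of freedom), without a block. The contrasts compared Omomyc with PBS within each line, PBS between lines and differences of responses, with Benjamini-Hochberg adjustment over all genes; the fit was tested on simulated data. Contrasts of PBS levels and of responses share arrays. Members, gene lists, markers, motifs and the array clusters were chosen with earlier results of these data known. All members are named; from each list up to 2 genes that rose and 2 that fell in a line by smallest p (all where 5 or fewer were called), the 6 genes most like KRT4 and the 2 most like each other member, and MYC. Motifs were searched in RefSeq promoters (GRCh38.p14).

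Pairing by replicate number was checked by the correlation of the deviations of PBS and Omomyc arrays from their group means. H1299 (5 pairs, 0.26 to 0.39) and A549 (3 pairs, 0.11 to 0.2) exceeded 0.1, the threshold set for pairing, in every pair, and H1975 (-0.2 to 0.33) did not. Each pair of H1299 and A549 lay within 1 cluster. With the cluster removed the ranges were -0.13 to 0.07, -0.15 to 0.02 and -0.26 to 0.09, so no pairing beyond the shared cluster was seen. Alternatives were median centring, quantile normalization, the mean of probe sets, leaving out the 30% of genes with the lowest mean, array weights, trend and robust settings, the line alone, a fold change of at least 2, an adjusted p under 0.01, each array left out, the cluster as a block or alone, and the replicate block with and without the cluster.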

Additional observations from a re-analysis of the deposited data

Results flagged for a closer look

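The response of KRT4 to Omomyc differed between the 3 lines in the moderated F test of limma (adjusted p 7e-06). KRT4 rose 7.03-fold in A549, where all 3 Omomyc arrays were above all 4 PBS arrays, and was at background in H1975 and H1299 with either treatment. The difference from A549 was called without any 1 array of the lines compared, in 16 of 16 such fits for H1975 and in 17 of 17 for H1299. No single array stood far from its group in any of the 35 sets of 4 or 5 arrays tested, where chance alone would mark about 1 in 20.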

How the results depend on the processing

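The call of KRT4 in A549 held under every alternative except the second cluster alone, with 1 array on each side (1.85). That fit took its spread from arrays of the other lines and says nothing of the spread in A549. Values near the background bound, at most 5 arrays a group and a cluster without an Omomyc array of A549 limit what can be read. The cause of the changes below was not tested.

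In H1975, where 1 of the 7 keratins was called, 2 were called with quantile normalization and with the cluster as a block, and 0 with array weights, a fold change of at least 2, an adjusted p under 0.01, each cluster alone (0, 0 and 0), and the replicate block together with the cluster. In A549, 2 became 1 at an adjusted p under 0.01, on A549 arrays alone and in the first cluster alone, and 0 in the second cluster alone. For the response of H1975 minus that of A549, 1 became 2 with quantile normalization, median centring, array weights, the cluster as a block and the replicate block with the cluster, 3 with the replicate block, and 0 in the second cluster alone. For A549 minus H1299, 1 became 2 with quantile normalization, median centring, the cluster as a block, the replicate block, and the replicate block with the cluster, and 0 in the second cluster alone. Leaving out 1 array gave 0 to 1 in H1975, 1 to 2 in A549 (1 without PBS replicate 2 or Omomyc replicate 3) and 1 to 2 for H1975 minus A549 (2 without H1975 Omomyc replicate 2 or 5, or A549 PBS replicate 3). Counts between lines with PBS and those of H1299 stayed within 1.5 times.

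With the replicate block KRT8 in H1975 was at -0.52 (adjusted p 0.0595) and KRT7 at 1.05 (0.0103); the numbers do not pair arrays in that line. KRT7 then also differed in response between H1975 and A549 (1.39, adjusted p 0.0487). In A549 the block left KRT4 at 2.51 and KRT80 at -1.28, both called. Among the 7 keratins it changed no other call within a line. KRT5 in A549 minus H1299 passed when the cluster entered as a block (0.52, adjusted p 0.0412). No value called changed sign. Of all values with 1 array left out, 10 lost and 3 gained a call. A further 713 kept their call or lack of it, with the same sign or within 1 SE of the main value. The remaining 2 were uncalled and changed sign by more than that. Under the other settings these counts were 29, 18, 771 and 13.

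The number of all genes called moved by over 1.5 times in these cases. With the cluster as a block it was 3400, 502 and 2812 in H1975, A549 and H1299, against 2095, 211 and 1569, and 1822, 2077 and 1133 for the differences of response (H1975 minus A549, H1975 minus H1299, A549 minus H1299), against 817, 1009 and 437. An adjusted p under 0.01 left 1194, 113 and 886, and 362, 523 and 146; a fold change of at least 2 left 1244 in H1975 and 804 in H1299. Quantile normalization gave 351 in A549 and 1376, 1592 and 832 for the differences. Array weights gave 477 in A549, 1253 for H1975 minus A549 and 712 for A549 minus H1299. The first cluster alone gave 1018, 50 and 81, and 277, 113 and 21; the second 1047, 44 and 523, and 160, 509 and 121; the third 780 in H1975 and 345 for H1975 minus H1299. The replicate block with the cluster gave 1245 in H1975, 2622 in H1299 and 801 for A549 minus H1299. A549 arrays alone gave 81. A549 had 139 without PBS replicate 4 and 128 without Omomyc replicate 1, and A549 minus H1299 had 274, 270 and 285 without its Omomyc replicates 1, 2 and 3.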
